A study of Homo sapiens with 6 samples.

Results

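The genes described here are the kinesin motors, the centromere proteins named CENP, and 16 regulators and markers of mitosis, in H1299 cells with and without overexpression of the long non-coding RNA lncBCAS1-4_1. They were taken by symbol: every entry whose symbol starts with KIF and a digit or C, every CENP followed by a single letter, and ASPM, MKI67, TOP2A, CCNA2, CCNB1, CCNB2, CDK1, CDC20, PLK1, AURKB, BUB1, BUB1B, BIRC5, UBE2C, FOXM1 and MYBL2, without antisense names. This gave 76 of 19201 entries in the deposited table, all of which were among the 19101 entries tested. They fall into 13 kinesins of mitosis, 25 other kinesins, 21 CENP genes, the 16 regulators, and KIF26A-DT, a divergent non-coding transcript that the symbol rule also takes in. Counts were measured by RNA-seq of total RNA in 3 libraries labelled wildtype and 3 labelled lncBCAS1-4_1 overexpressed, all of H1299, an established cell line from a human non-small cell lung carcinoma. The labels name no vector for the controls, so the RNA and the procedure that introduced it cannot be told apart, and no label gives a treatment, a time or a cell clone.

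A dividing cell condenses its chromosomes, builds a bipolar spindle of microtubules and attaches each centromere to it through the kinetochore. Kinesins are ATP-driven motors that walk along microtubules or take them apart, and some of them serve mitosis while others carry organelles and vesicles in cells that are not dividing. Many CENP proteins mark the centromere or form the inner layer on which the kinetochore is built, while others, such as CENPF, do not. Cyclin-dependent kinase 1 with its B cyclins drives entry into mitosis, the BUB proteins hold the cell until all chromosomes are attached, and the anaphase-promoting complex with CDC20 then lets it divide. Many genes of this programme are transcribed together in G2 and mitosis by complexes of MuvB with MYBL2 and FOXM1, which bind promoters through the cell cycle genes homology region (CHR, letters TTTGAA), often beside CCAAT boxes.

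The letters of these elements were searched in the members' promoters. RefSeq promoters (GRCh38.p14, 250 bases before to 50 after each listed start) matched 62 of the 76 members by symbol. TTTGAA on either strand stood in at least 1 listed promoter of 10 of 13 mitotic kinesins, 8 of 13 matched regulators, 5 of 17 matched CENP genes and 1 of 18 matched other kinesins (KIF5B), against 13.9% of 11248 matched protein-coding genes among those tested. It lay wholly within the 60 bases before the start in 11 members (17.7%), of which 5 were mitotic kinesins, 5 regulators and 1 a CENP gene, against 2.53% of those coding genes. Among matched mitotic kinesins and regulators, KIF20A, KIF22, KIF2C, AURKB, BUB1, CCNA2, CCNB1 and MYBL2 had no TTTGAA in these windows. CCAAT on either strand was found in 11 of 13 mitotic kinesins, 11 of 13 regulators, 10 of 17 CENP genes and 5 of 18 other kinesins, against 43% of the coding genes. Taking single promoters in place of genes, 15.2% of all 35116 listed promoters held TTTGAA and 34.6% held CCAAT. Genes with more listed starts have more chances of a match, and the members had 1.18 starts a gene against 1.46 in the coding genes.

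Of the 11 members with TTTGAA within 60 bases before a start, the 10 with a single listed start (all but CDK1) are shown to let its place before the start be compared between genes. Each line gives the 80 bases that end 1 base before the RefSeq start, 5′ to 3′ on the gene's strand. TTTGAA or its reverse complement TTCAAA, and CCAAT or its reverse complement ATTGG, are in capitals.
BUB1B (chr15:40160989-40161068, plus strand): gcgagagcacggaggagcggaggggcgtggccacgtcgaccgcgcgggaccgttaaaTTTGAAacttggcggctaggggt
CCNB2 (chr15:59105066-59105145, plus strand): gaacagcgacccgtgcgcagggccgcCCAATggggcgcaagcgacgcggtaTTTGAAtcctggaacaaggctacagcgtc
CENPA (chr2:26785976-26786055, plus strand): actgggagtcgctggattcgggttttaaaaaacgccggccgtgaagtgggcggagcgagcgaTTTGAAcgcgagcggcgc
KIF11 (chr10:92593050-92593129, plus strand): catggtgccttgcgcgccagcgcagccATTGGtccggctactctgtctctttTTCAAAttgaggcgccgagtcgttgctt
KIF15 (chr3:44761714-44761793, plus strand): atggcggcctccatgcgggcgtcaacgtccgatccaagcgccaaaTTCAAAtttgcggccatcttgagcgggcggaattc
KIF18A (chr11:28108157-28108236, minus strand): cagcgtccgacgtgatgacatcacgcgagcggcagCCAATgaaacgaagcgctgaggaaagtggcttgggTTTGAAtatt
KIF23 (chr15:69414269-69414348, plus strand): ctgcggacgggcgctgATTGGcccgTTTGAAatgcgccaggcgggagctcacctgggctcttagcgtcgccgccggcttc
KIF4A (chrX:70290024-70290103, plus strand): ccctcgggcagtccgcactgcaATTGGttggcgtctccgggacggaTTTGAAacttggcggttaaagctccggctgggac
MKI67 (chr10:128126424-128126503, minus strand): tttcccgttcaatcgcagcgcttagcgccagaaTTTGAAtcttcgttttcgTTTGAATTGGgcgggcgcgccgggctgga
PLK1 (chr16:23678809-23678888, plus strand): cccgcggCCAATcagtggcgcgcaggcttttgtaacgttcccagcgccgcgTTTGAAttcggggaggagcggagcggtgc

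In these lines the nearest TTTGAA or TTCAAA begins between 55 bases (KIF23) and 10 bases (KIF18A) before the start, and at 29 bases before it in CCNB2, PLK1 and MKI67 alike. MKI67 has a second copy upstream, and its nearer copy overlaps an ATTGG. The match is of letters only.

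The series as a whole sets how the values are read. Library totals ran from 84531039 to 92780032 counts, the spread between replicates exceeded that of counting alone (11.6 to 22.8 times, as chi-square over its degrees of freedom), and the labels do not say whether replicates were separate cultures, so the p-values reflect only how these samples varied. In bulk RNA, fewer cells in mitosis and less RNA per mitotic cell cannot be told apart. No entry named for the overexpressed RNA was analysed here. The epithelial keratins KRT8 and KRT18 went from 368 and 956 CPM in the controls to 446 and 1301 CPM, and with KRT7 all 3 measured epithelial markers of 4 listed were higher as fitted and 1 after the correction described below. Their part in the results was not tested. The 5 markers of blood, endothelial and fibroblast cells that were measured, of 10 listed, passed in neither direction and summed to between 2.45 and 3.01 CPM in every library of both groups. CPM is counts per 1000000 library counts after TMM scaling.

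Fold changes in this series also ran with the GC content of the transcript, so every gene is given in 2 fits: edgeR as fitted, and the same test with the trends on GC content and on the length of the transcript removed from every library, called the correction below. Across the 76 members, which share the same 6 libraries, Spearman's rho between GC content and log2 fold change was 0.79 as fitted and 0.25 after the correction, and over all tested entries with a known GC content it was 0.54 and -0.0033. When tested entries were split at the quartiles of GC content, the lowest group reached 42.3%. There 25 of 27 members were lower in the overexpressing cells and none was higher, beside 47.7% lower and 1.98% higher among all entries of that group. In the highest group (above 56.5%), 1 of 19 members was lower and 4 were higher, beside 1.79% and 40.7% of all entries. After the correction these members numbered 16 lower and 1 higher in the lowest group and 7 lower and 1 higher in the highest. Of all entries 11.6% were then lower and 12.4% higher in the lowest group, and 10.6% and 11.4% in the highest, and the median over all entries was between -0.013 and -0.0025 in every such group. The part of GC content in the fitted differences was not tested beyond this correction.

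**Figure D1:**
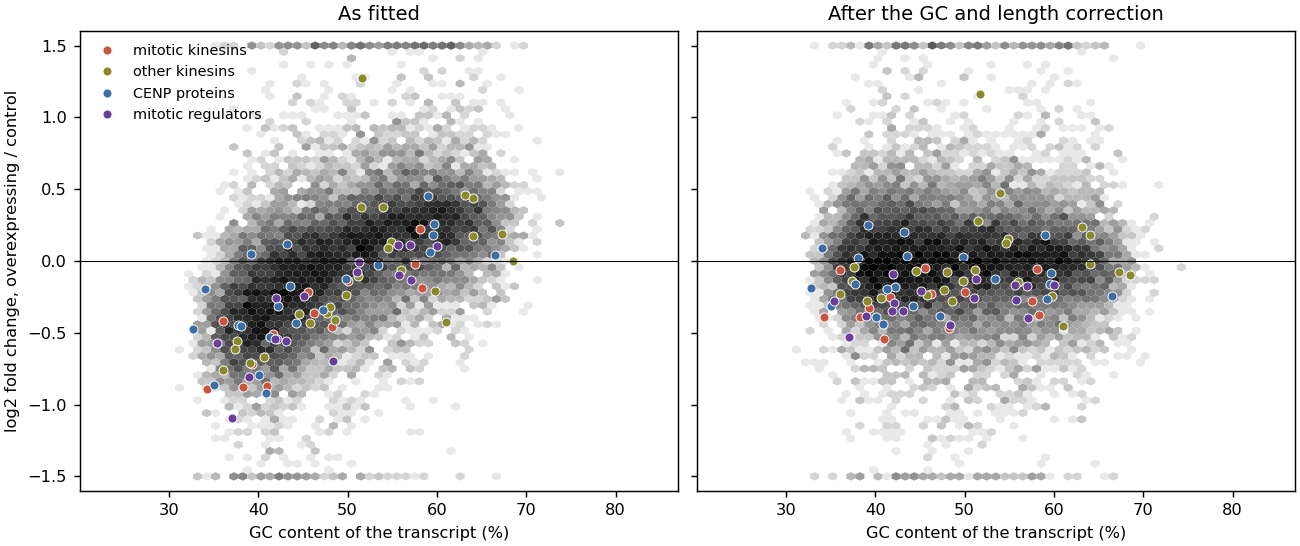
Each coloured point is a member by class, with the GC content of its transcript (%) on the horizontal axis and its log2 fold change (overexpressing over control) on the vertical axis, as fitted on the left and after the correction on the right; grey shading is the density of all tested entries on a log scale, with values beyond 1.5 drawn at the edge. As fitted the members rise with GC content (rho 0.79 over 76 genes), and after the correction most lie below 0 along the whole axis.

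More members were lower than higher in both fits. As fitted, 41 of 76 were lower and 7 higher at an adjusted p under 0.05 (edgeR's quasi-likelihood test), beside 19.7% lower and 18.3% higher among all tested entries. After the correction 38 were lower and 3 higher, beside 10.7% and 12.1% (38% and 22.7% of all entries passed in either direction in the 2 fits). All members but KIF26A-DT are protein-coding. Of the 14018 protein-coding entries tested, 24.9% were lower and 23.5% higher as fitted, and 1788 were lower and 2213 higher after the correction. The lower members were not all the same genes: 27 were lower in both fits, 14 only as fitted and 11 only after the correction. The median log2 fold change of the members was -0.24 as fitted and -0.18 after the correction, against -0.0041 and -0.0061 for all tested entries. Changes were small, with 33 of the 48 called members under 1.5-fold as fitted, and the 38 lower after the correction changed by between -8.51% and -31.2%. In plain levels, all 3 overexpressing libraries lay below all 3 controls in 43 members and above them in 10, beside 26% and 24.7% of all tested entries.

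**Figure D2:**
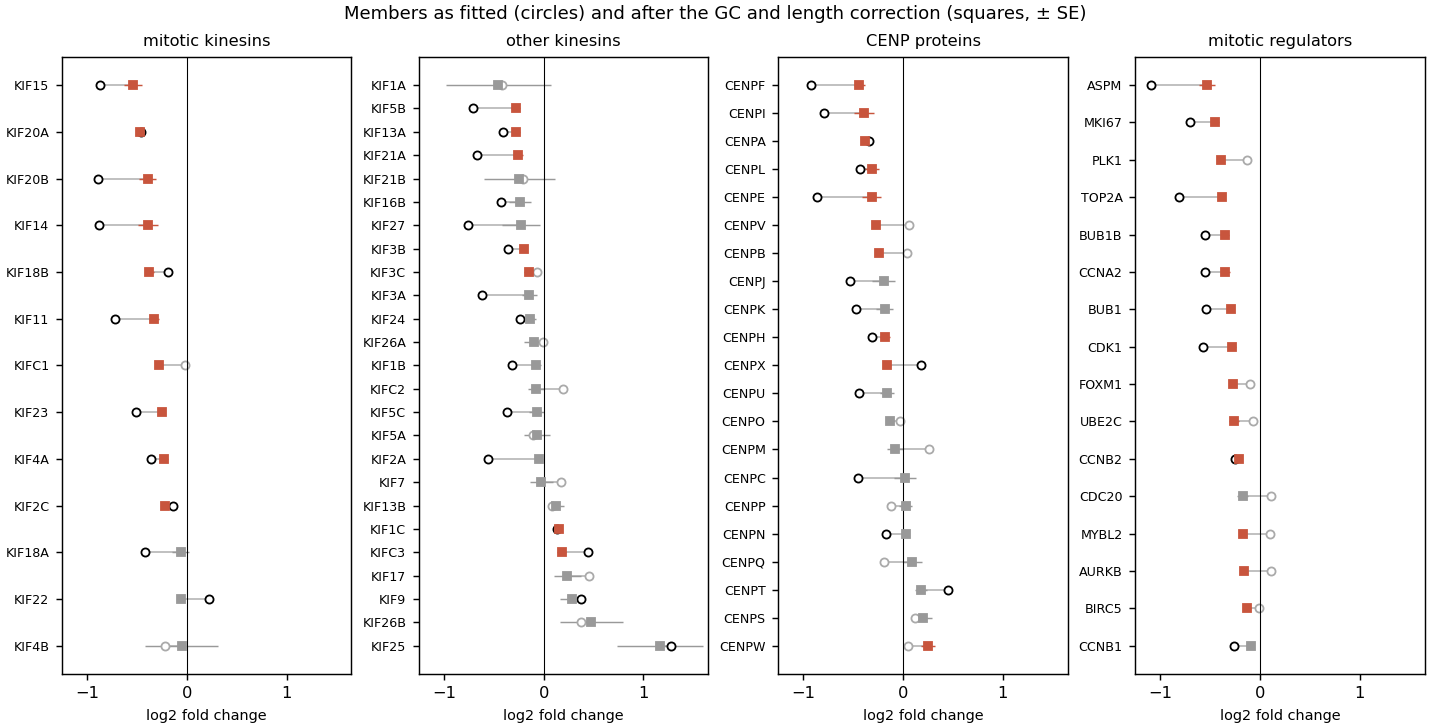
Each row is a member in its class, with the log2 fold change (overexpressing over control) as fitted as a circle and after the GC and length correction as a square with its standard error; black circles and red squares passed an adjusted p of 0.05, grey ones did not. All 16 regulators and all 13 mitotic kinesins have squares left of 0, while other kinesins and CENP genes lie on both sides.

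The 16 regulators gave 14 lower and none higher after the correction, although as fitted 9 were lower and 7 did not pass. Over all tested entries 10.7% were lower and 12.1% higher after the correction, and 19.7% and 18.3% as fitted. The fitted calls followed base composition exactly in this class: the 9 that passed had a GC content of at most 48.3%, and the 7 that did not had at least 51.1%. After the correction 6 of those 7 were lower, and the median was -0.28 (as fitted -0.25). Summed over the class, the level was 4305, 4347 and 4179 CPM in the controls and 3753, 3515 and 3590 CPM in the overexpressing libraries.

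**Figure D3:**
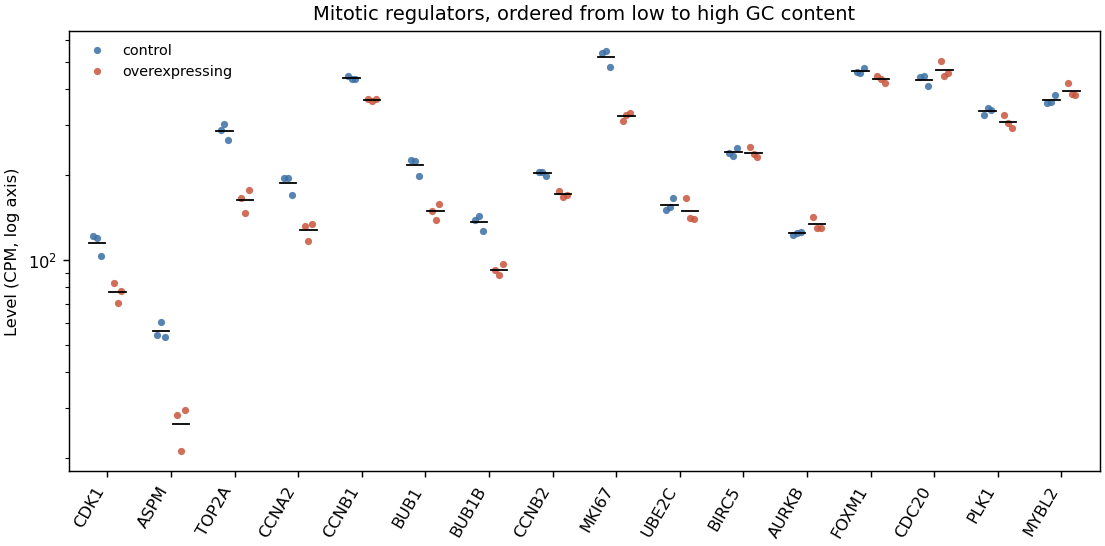
Level in CPM (log axis) of each of the 16 regulators in every library, blue for the 3 controls and red for the 3 overexpressing libraries, with black bars at the means and genes ordered from low GC content on the left to high on the right. The red points lie below the blue in the 9 genes with the lowest GC content, and among the 7 at the right they lie below only in FOXM1 and above in AURKB and CDC20.

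ASPM, a spindle pole protein that organises microtubule minus ends (chromosome 1 from 197084121 to 197146694 in GRCh38), had the largest fall of the class. It was at 54.2, 60.2 and 53.5 CPM in the controls and at 28.4, 21.1 and 29.4 CPM in the overexpressing libraries, groups that do not overlap. The log2 fold change was -1.09 (SE 0.12, adjusted p = 0.00027), which made it the only member lower by over 2-fold with an unadjusted p under 0.05 (1.18% of all tested entries), and -0.53 after the correction (SE 0.08, adjusted p = 0.0018). TOP2A, the topoisomerase that untangles sister chromatids, went from 288, 301 and 266 CPM to 165, 147 and 177 CPM, and its log2 fold change was -0.81 (adjusted p = 0.00015) and -0.38 corrected (adjusted p = 0.00018). MKI67, which coats mitotic chromosomes and is used as a marker of dividing cells, went from 536, 545 and 481 CPM to 310, 324 and 330 CPM. Its corrected value of -0.45 (SE 0.04, adjusted p = 0.0001) means a fall of 26.6% where the fitted one is 38.4%.

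The checkpoint kinases BUB1 and BUB1B fell together. BUB1, which recruits checkpoint proteins to the kinetochore, was at 225, 223 and 199 CPM in the controls and 148, 139 and 158 CPM in the overexpressing libraries, and BUB1B, part of the complex that inhibits CDC20, at 138, 143 and 126 against 92.2, 88.0 and 96.6 CPM. Every overexpressing library lay below every control for both. Log2 fold changes were -0.54 and -0.55 as fitted (adjusted p = 0.00036 and 0.000245) and -0.29 and -0.35 corrected (adjusted p = 0.00087 and 0.00033).

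Among the cyclins and their kinase, the fall was larger for CDK1 and CCNA2 than for the B cyclins. CDK1, the kinase of mitotic entry, went from 121, 119 and 103 to 83.1, 70.7 and 77.6 CPM, and CCNA2, the cyclin of S and G2 phase, from 195, 195 and 169 to 132, 117 and 134 CPM. Their log2 fold changes were -0.57 and -0.55 as fitted and -0.28 and -0.35 corrected, each with an adjusted p of at most 0.0018. CCNB2 went from 204, 205 and 197 to 175, 167 and 169 CPM (log2 fold change -0.25, corrected -0.21, adjusted p = 0.0010). CCNB1, the main partner of CDK1, was at 447, 436 and 435 CPM and then 369, 365 and 369 CPM, a narrow and separate pair of ranges. Its call as fitted (log2 fold change -0.26, adjusted p = 0.00067) was not kept after the correction (-0.09, SE 0.03, adjusted p = 0.087). No test was made of these differences between genes.

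The GC-rich regulators moved the other way between the fits. PLK1, the kinase that matures centrosomes and recruits checkpoint and cytokinesis factors, was at 325, 343 and 339 CPM in the controls and 326, 303 and 292 CPM in the overexpressing libraries, with 1 overexpressing library among the control values. Its log2 fold change was -0.13 as fitted (adjusted p = 0.063) and -0.39 corrected (SE 0.04, adjusted p = 0.00019). FOXM1, a transcription factor of the G2 and mitosis genes, was at 459, 458 and 476 CPM against 445, 435 and 422 CPM (log2 fold change -0.10, adjusted p = 0.075, corrected -0.27, adjusted p = 0.00031). UBE2C, the ubiquitin-conjugating enzyme of the anaphase-promoting complex, was at 150, 154 and 165 CPM against 165, 140 and 140 CPM (-0.07, adjusted p = 0.46, corrected -0.26, adjusted p = 0.0063).

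For MYBL2, AURKB and CDC20 the 2 fits had opposite signs. MYBL2, the MuvB partner in S and G2 phase, was at 359, 362 and 384 CPM in the controls and 420, 387 and 381 CPM in the overexpressing libraries, and AURKB, the kinase of the chromosomal passenger complex, at 122, 125 and 125 against 142, 130 and 130 CPM. CDC20, the activator of the anaphase-promoting complex, was at 442, 446 and 412 against 502, 447 and 455 CPM. The overexpressing libraries of AURKB and CDC20 all lay above the controls. Log2 fold changes were 0.10 for MYBL2, 0.11 for AURKB and 0.11 for CDC20, none past the threshold (adjusted p = 0.13, 0.098 and 0.14). Corrected values were -0.17 for MYBL2 (adjusted p = 0.0083), -0.16 for AURKB (adjusted p = 0.0094) and -0.17 for CDC20, which did not pass (adjusted p = 0.052) but did without control replicate 3 (-0.23, adjusted p = 0.011). BIRC5, the survivin subunit of the passenger complex, was at 239, 232 and 248 against 251, 236 and 230 CPM. Its fitted value was -0.01 (adjusted p = 0.93) and its corrected value -0.13 (adjusted p = 0.039), a call lost without any 1 of 5 libraries (adjusted p from 0.065 to 0.12), overexpressing replicate 1 being the exception.

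Of 13 kinesins of mitosis, 10 were lower and 1 higher as fitted, and 10 were lower with none higher after the correction, 9 of them in both. The fitted shares were 76.9% and 7.69%, beside 19.7% and 18.3% of all tested entries. After the correction 10.7% of all entries were lower and 12.1% higher. The median log2 fold change was -0.42 as fitted and -0.28 corrected, and the summed level was 1522, 1567 and 1480 CPM in the controls against 1322, 1224 and 1263 CPM. KIF2B was not analysed here. KIF4B is a close copy of KIF4A, so its low count (0.674 CPM in the controls) may hold reads of KIF4A and is uncertain.

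**Figure D4:**
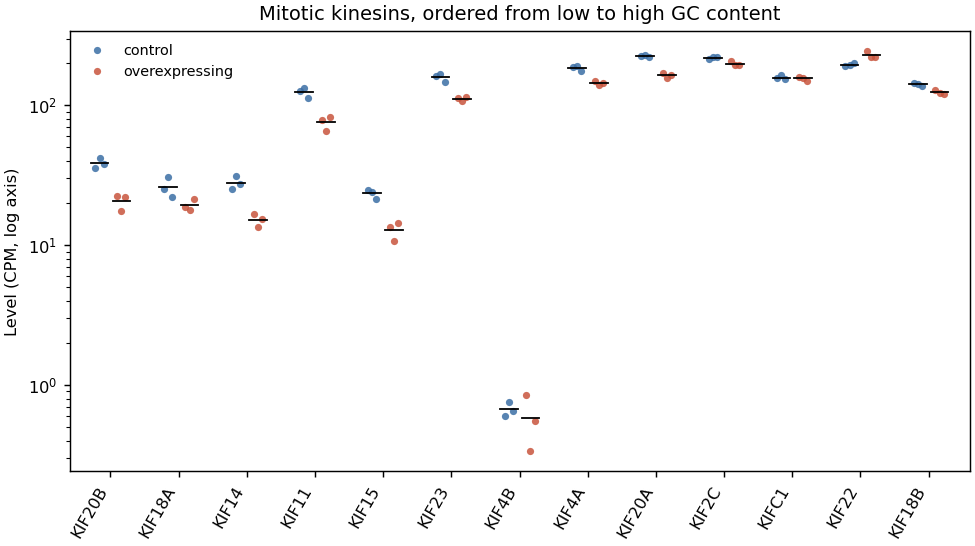
Level in CPM (log axis) of each of the 13 mitotic kinesins in every library, blue for controls and red for overexpressing libraries, with black bars at the means and genes ordered from low to high GC content. The red points lie below the blue in 10 genes, above them in KIF22, and among them in KIFC1 and KIF4B.

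KIF20A, a motor of the central spindle needed for cytokinesis (chromosome 5 from 138178719 to 138187723), was the member of this class with the smallest p. It was at 226, 227 and 223 CPM in the controls and 170, 157 and 165 CPM in the overexpressing libraries, well apart. Its GC content of 48.2% is near the median of all entries, and its log2 fold change was -0.46 as fitted (SE 0.04, adjusted p = 0.00017) and -0.47 corrected (SE 0.04, adjusted p = 0.00014). KIF23, which bundles microtubules of the central spindle with RACGAP1, went from 161, 166 and 148 to 112, 107 and 115 CPM (log2 fold change -0.51, corrected -0.25, adjusted p = 0.00076). KIF20B, a related motor of cytokinesis, went from 35.5, 41.9 and 37.8 to 22.4, 17.6 and 22.0 CPM (log2 fold change -0.89, corrected -0.39, adjusted p = 0.0079). KIF14, which binds PRC1 and citron kinase at the midbody, went from 25.2, 31.4 and 27.2 to 16.8, 13.4 and 15.4 CPM (log2 fold change -0.88, corrected -0.39, adjusted p = 0.021). The corrected call of KIF14 was lost without control replicate 2 or 3 or overexpressing replicate 2 or 3 (adjusted p from 0.063 to 0.087).

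The motors that push spindle poles apart fell as well. KIF11, the plus-end motor that crosslinks and slides antiparallel microtubules, went from 126, 133 and 113 to 78.0, 65.2 and 83.0 CPM (log2 fold change -0.72, corrected -0.33, adjusted p = 0.0025). KIF15, which can take over that role, went from 25.0, 24.1 and 21.6 to 13.5, 10.7 and 14.4 CPM, and its corrected value of -0.54 (SE 0.09, adjusted p = 0.0034) was the lowest of all 76 members. KIF4A, a chromosome-arm motor, had corrected and fitted values of -0.23 and -0.36. KIF18B, which shortens astral microtubules and has a GC content of 58.4%, had a fitted value of -0.19 (adjusted p = 0.010) and a corrected one of -0.37 (adjusted p = 0.00074). KIFC1, a minus-end motor that focuses spindle poles, was at 157, 163 and 154 CPM in the controls and 161, 158 and 149 CPM in the overexpressing libraries, which overlap, and its fitted value of -0.02 (approximate 95% interval -0.11 to 0.07) became -0.28 (adjusted p = 0.0017). KIF18A, which dampens chromosome oscillations, fell as fitted (-0.42, adjusted p = 0.027) but not after the correction (-0.06, adjusted p = 0.68). The fitted call of KIF18A was lost without control replicate 1 or 2 or overexpressing replicate 1 or 2, with a value of -0.28 (adjusted p = 0.10) without control replicate 2.

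KIF22 and KIF2C had the highest levels of the class per length of transcript, at 93.9 and 76.4 CPM per kb in the controls. KIF22, a chromosome-binding motor, was the single mitotic kinesin that rose as fitted, from 192, 194 and 200 to 243, 220 and 220 CPM (log2 fold change 0.22, adjusted p = 0.0065). After the correction its value was -0.06 (adjusted p = 0.33). KIF2C, which removes tubulin from microtubule ends at the centromere, was at 215, 220 and 220 CPM against 206, 194 and 193 CPM, a fitted change of -0.14 (adjusted p = 0.023) and a corrected one of -0.22 (adjusted p = 0.0033). The fitted call of KIF2C was lost without any 1 library other than overexpressing replicate 1 (adjusted p from 0.052 to 0.089).

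Among the other kinesins 11 of 25 were lower and 4 higher as fitted, and 5 were lower and 2 higher after the correction. The fitted shares were 44% and 16%, beside 19.7% and 18.3% of all tested entries. After the correction 10.7% of all entries were lower and 12.1% higher. The class holds every kinesin not listed as mitotic, so a role in mitosis is not excluded for its genes. Their median was -0.21 as fitted and -0.08 corrected. Whether this class differs from the mitotic kinesins was not tested. Transcripts of this class were long, with a median of 6295 bases against 2641 over all entries, and their GC content ran from 36.1% to 68.6%.

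KIF5B, the heavy chain of conventional kinesin that carries vesicles and mitochondria (chromosome 10 from 32009015 to 32056425), went from 170, 177 and 149 to 102, 88.7 and 112 CPM. The groups lie apart, with a log2 fold change of -0.71 (SE 0.09, adjusted p = 0.00047) and -0.28 corrected (SE 0.05, adjusted p = 0.0031). KIF21A, which pauses microtubule growth at the cell cortex, went from 59.9, 57.6 and 50.5 to 37.2, 32.4 and 36.2 CPM (log2 fold change -0.67, corrected -0.26, adjusted p = 0.0090). KIF13A, a carrier of endosomes, went from 64.2, 69.8 and 67.7 to 49.4, 50.6 and 51.9 CPM (log2 fold change -0.41, corrected -0.28, adjusted p = 0.0013). KIF3B, a subunit of the kinesin-2 motor of cilia, went from 104, 106 and 99.9 to 76.5, 81.0 and 84.0 CPM (log2 fold change -0.36, corrected -0.20, adjusted p = 0.0034). The other 7 that were lower as fitted (KIF2A, KIF3A, KIF1B, KIF5C, KIF27, KIF16B and KIF24) did not pass after the correction, with values from -0.24 to -0.04. The fitted calls of KIF27, KIF16B and KIF24 were lost without control replicate 1, that of KIF16B also without overexpressing replicate 2, and that of KIF24 also without control replicate 2 or overexpressing replicate 1 or 2.

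As fitted 4 members of this class rose, a share (16%) below that of all tested entries (18.3%). KIFC3, a minus-end motor at cell junctions, went from 86.1, 87.0 and 91.0 to 126, 124 and 109 CPM (log2 fold change 0.44, adjusted p = 0.00068, corrected 0.18, adjusted p = 0.013). KIF1C, a vesicle motor with the highest level of the class per length (31.8 CPM per kb), went from 242, 251 and 263 to 287, 278 and 266 CPM (log2 fold change 0.14, adjusted p = 0.047, corrected 0.15, adjusted p = 0.017). Both KIF1C calls were lost without control replicate 1 or 2 (adjusted p of 0.18 and 0.14 as fitted, 0.080 and 0.070 corrected), and the fitted call also without overexpressing replicate 1 or 2. KIF9, a motor of cilia and flagella, went from 6.38, 6.31 and 5.74 to 8.20, 8.56 and 7.12 CPM and passed as fitted only (0.37, adjusted p = 0.036, corrected 0.28, adjusted p = 0.11). KIF25 had the largest fold of all members, from 0.224, 0.275 and 0.156 to 0.344, 0.671 and 0.578 CPM (2.42-fold, adjusted p = 0.043), the only member higher by over 2-fold (1.77% of all tested entries), on few counts, and did not pass after the correction (adjusted p = 0.087). The fitted call of KIF9 held only without overexpressing replicate 3 (adjusted p = 0.025) and that of KIF25 only without overexpressing replicate 1 (adjusted p = 0.033), each among the 6 fits that leave out 1 library. Scaling by library size alone also ended the fitted calls of KIF9, KIF25 and KIF1C (adjusted p = 0.063, 0.052 and 0.13), and limma-voom that of KIF25 (adjusted p = 0.057).

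Of the remaining 10, KIF3C was lower after the correction alone (-0.15, adjusted p = 0.042), a call lost without control replicate 1 or 2 or overexpressing replicate 1 or 3 (adjusted p from 0.091 to 0.15). KIF17, KIFC2, KIF7, KIF26B, KIF13B, KIF1A, KIF5A, KIF21B and KIF26A passed in neither fit. KIF1A, KIF21B, KIF26B and KIF25 were under 1 CPM in the controls, so their values rest on few counts, as does that of KIF26A-DT (0.130 against 0.149 CPM).

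Of 21 CENP genes, 11 were lower and 2 higher as fitted, and 9 lower and 1 higher after the correction. The fitted shares were 52.4% and 9.52%, beside 19.7% and 18.3% of all tested entries. After the correction 10.7% of all entries were lower and 12.1% higher. Without control replicate 2 or overexpressing replicate 2 the corrected count of lower CENP genes was 5. The 15 genes with a CENP symbol in the constitutive centromere network, the inner kinetochore layer, gave 7 lower and 2 higher as fitted and 4 lower and 1 higher corrected. Of the 6 CENP genes outside it (CENPA, CENPB, CENPE, CENPF, CENPJ and CENPV), 4 were lower as fitted and 5 corrected, with none higher. Medians after the correction were -0.08 for these 15 CENP genes and -0.29 for the 6 outside the network, a difference that was not tested.

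**Figure D5:**
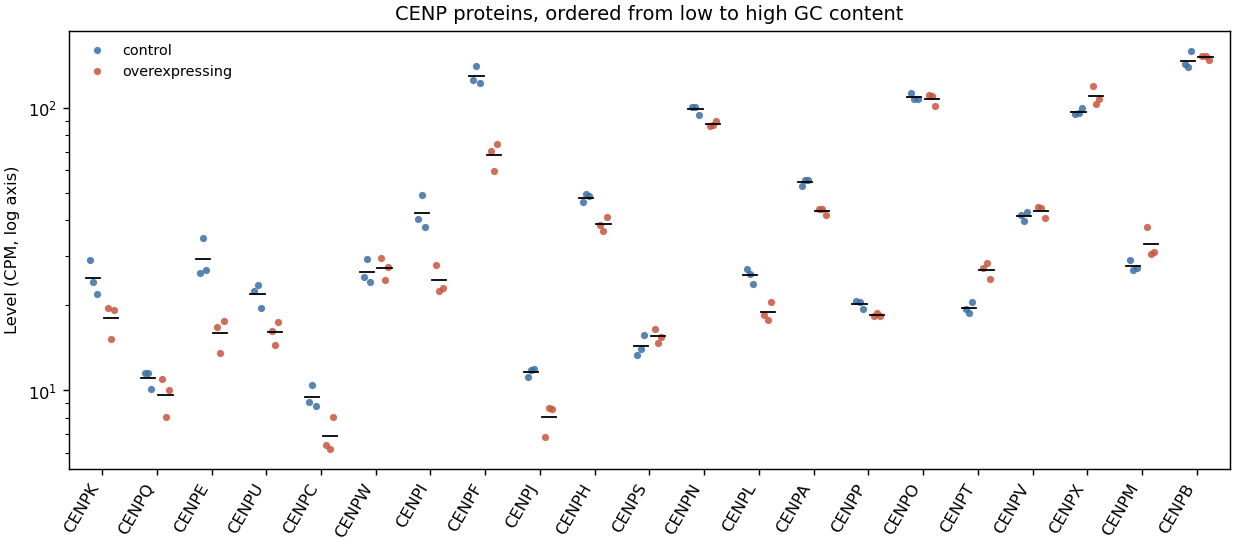
Level in CPM (log axis) of each of the 21 CENP genes in every library, blue for controls and red for overexpressing libraries, with black bars at the means and genes ordered from low to high GC content. The red points lie below the blue in 12 genes, among them CENPF, CENPI and CENPE, and above them in CENPT, CENPX and CENPM.

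CENPF, a large protein of the outer kinetochore that accumulates in G2 (chromosome 1 from 214603185 to 214664574), went from 125, 141 and 122 to 70.1, 59.8 and 74.6 CPM. Its log2 fold change was -0.92 (SE 0.08, adjusted p = 0.00016) as fitted and -0.44 corrected (SE 0.06, adjusted p = 0.00082). CENPA, the histone H3 variant that marks the centromere, went from 53.1, 55.6 and 55.3 to 43.8, 43.9 and 41.9 CPM, with nearly the same value in both fits (-0.34, adjusted p = 0.00073, and -0.38, adjusted p = 0.00027). CENPE, the kinesin that carries chromosomes to the spindle equator, went from 26.1, 34.7 and 26.7 to 16.8, 13.6 and 17.6 CPM (-0.87, corrected -0.31, adjusted p = 0.041), and CENPI of the network from 40.3, 49.1 and 37.9 to 27.8, 22.6 and 23.1 CPM (-0.79, corrected -0.39, adjusted p = 0.023). Control replicate 2 was the highest library for CENPF, CENPE and CENPI. Without it the corrected values were -0.23 for CENPE (adjusted p = 0.15) and -0.30 for CENPI (adjusted p = 0.089), and other omissions also ended these calls (adjusted p from 0.053 to 0.11 for CENPE and 0.069 to 0.073 for CENPI).

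CENPH and CENPL of the network were lower in both fits, and CENPJ, CENPU, CENPN, CENPK and CENPC only as fitted. The corrected calls of CENPH (adjusted p = 0.030) and CENPL (adjusted p = 0.012) were lost, for CENPH without control replicate 2 or 3 or overexpressing replicate 1 or 2 (adjusted p from 0.079 to 0.10), and for CENPL without control replicate 1 (adjusted p = 0.053). CENPN and CENPC turned from -0.17 and -0.45 as fitted to 0.034 and 0.022 corrected. The fitted call of CENPK was lost without control replicate 1, that of CENPN without control replicate 1 or 2, and that of CENPC without control replicate 1 or 2 or overexpressing replicate 1 or 2. CENPM, CENPP, CENPQ, CENPS and CENPO passed in neither fit, and reads of CENPS may be shared with the overlapping readthrough entry CENPS-CORT.

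CENPT and CENPX were the 2 that rose as fitted. CENPT, a DNA-binding member of the network that recruits the NDC80 complex, went from 19.5, 18.7 and 20.5 to 27.1, 28.3 and 24.8 CPM (log2 fold change 0.45, adjusted p = 0.0018), and lay just beyond the threshold after the correction (0.18, adjusted p = 0.054). CENPX, a histone-fold partner of CENPT and CENPS, had the highest level per length of the CENP genes (127 CPM per kb in the controls) and went from 94.7, 96.2 and 100 to 119, 103 and 108 CPM. It is the single member called in opposite directions, higher as fitted (0.18, adjusted p = 0.036) and lower after the correction (-0.16, adjusted p = 0.025). Both calls of CENPX were lost without control replicate 1 or 2 (fitted adjusted p of 0.12 and 0.11, corrected 0.068 and 0.082), the fitted one also without overexpressing replicate 1 or 3 and the corrected one also without overexpressing replicate 2. The fitted call was lost with library size alone as well (adjusted p = 0.078). CENPB, which binds a motif of alpha-satellite DNA, and CENPV were lower only after the correction (-0.24, adjusted p = 0.0011, and -0.27, adjusted p = 0.0019), and their libraries overlapped. CENPW was higher only after the correction (0.25, adjusted p = 0.027), a call lost without control replicate 1 or 3 or overexpressing replicate 1 or 2.

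The highest levels per length of transcript in the controls were those of CDC20 at 263 CPM per kb, CCNB1 at 216, UBE2C at 201 and PLK1 at 155, and the lowest were KIF1A, KIF26B and KIF21B at 0.037, 0.060 and 0.066. In the overexpressing cells CDC20 was at 284 CPM per kb, UBE2C at 191, CCNB1 at 181 and MYBL2 at 148. CCNB1 was thus above UBE2C in the controls and below it in the overexpressing cells, an order that was not tested. The correction was not applied to levels.

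Other genes that work with the members were taken in 11 lists of 112 genes in all, each of them measured. They gave 68 lower and 16 higher as fitted (60.7% and 14.3%) and 52 lower and 8 higher after the correction. Over all tested entries 19.7% were lower and 18.3% higher as fitted, and 10.7% and 12.1% after the correction. The share higher as fitted was thus below that of all entries. The shares over all entries also stand beside every list below. Without the 9 kinesin light chains and cargo adaptors, 103 genes of cell division gave 66 lower and 12 higher, and 49 and 6 corrected. The corrected count of higher genes among the 112 was 4 without control replicate 1. Condensins, which compact chromosomes, gave 7 of 8 lower and 1 higher as fitted, and 6 lower and none higher corrected, with NCAPG2 at -0.50 and -0.30 and NCAPG at -0.71 and -0.34 in the 2 fits. NCAPH2 was the higher one (0.23, corrected -0.02). Spindle microtubule proteins were lower in 11 of 14 and higher in 1, and corrected lower in 10 and higher in 1. The microtubule polymerase CKAP5 had -0.49 and -0.18, DLGAP5 -0.76 and -0.45, and the spindle organiser NUMA1 was higher in both fits (0.17 and 0.10). Cytokinesis genes were lower in 6 of 8 and higher in 2, and corrected 6 and 1, with the myosin MYH10 at -0.43 and -0.27, RACGAP1 at -0.32 and -0.21, and the GTPase RHOA at 0.24 and 0.28. SEPTIN9 was higher as fitted alone (0.21, corrected -0.02).

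Outer kinetochore genes were lower in 8 of 13 and higher in 1 as fitted and lower in 6 with none higher corrected. KNL1, the scaffold on which BUB1 docks, had -0.98 and -0.44, SKA3 -0.55 and -0.32, and PMF1 0.36 and 0.07. Of 7 centromere assembly genes 6 were lower as fitted and 3 corrected, among them HJURP, the chaperone of CENPA, at -0.24 and -0.26. Both measured partners in the passenger complex, INCENP and CDCA8, were lower in both fits (-0.29 and -0.48 for INCENP, -0.12 and -0.25 for CDCA8). Mitotic entry kinases and phosphatases were lower in 6 of 12 in each fit, but only 4 genes were lower in both. As fitted 1 was higher (ENSA, 0.12) and none corrected. NEK2 had -0.77 and -0.59 and the centriole kinase PLK4 -0.76 and -0.41.

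In the remaining lists, as in several of those above, fewer genes were lower after the correction, except among the light chains and adaptors. Shares higher as fitted were 22.2%, 15.8%, 9.09% and 44.4% in the order of the lists below, beside 18.3% of all tested entries. Spindle checkpoint genes were lower in 7 of 9 and higher in 2 as fitted, but lower in 3 and higher in 1 corrected, with KNTC1 at -0.83 and -0.39, TTK at -0.66 and -0.32, MAD1L1 at 0.41 and 0.13 and MAD2L1BP at 0.23 and 0.07. The anaphase-promoting complex and its inhibitors were lower in 7 of 19 and higher in 3, and corrected 5 and 2, with CDC27 at -0.60 and -0.13, ANAPC1 at -0.38 and -0.07, ANAPC2 at 0.38 and 0.09 and ANAPC11 at 0.21 and -0.12. Genes of MuvB, its pocket protein partners and E2F and DP factors were lower in 6 of 11 and higher in 1, and corrected 2 and 1. The DP factor TFDP1 was at -0.36 and -0.32, RBL1 at -0.65 and -0.26 (corrected adjusted p = 0.057) and LIN37 at 0.54 and 0.20 (corrected adjusted p = 0.28). RBBP4 of that list turned from lower (-0.23) to higher (0.20). Kinesin light chains and adaptors were higher in 4 of 9 and lower in 2, and corrected 2 and 3, with KLC4 at 0.64 and 0.37, KLC2 at 0.44 and 0.16, and the mitochondrial adaptors TRAK2 and TRAK1 at -0.54 and -0.23 as fitted and -0.16 and -0.23 corrected.

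TTTGAA was also counted by the members' calls. Among members matched to a promoter, 18 of the 33 that were lower after the correction held TTTGAA (54.5%), 6 of the 27 that did not pass (22.2%) and neither of the 2 that were higher. These shares are a description, since the promoter table covers only part of the members and the classes were not counted apart. TTTGAA was in 10 of 13 mitotic kinesins and 8 of 13 matched regulators but in 1 of 18 matched other kinesins. Of all 35 members that did not pass, matched or not, 18 were other kinesins, against 5 of the 38 lower ones. Whether TTTGAA goes with the calls within a class was not tested.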

How the data were processed

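RNA from 3 wildtype and 3 overexpressing H1299 libraries was sequenced, and the authors deposited raw read counts per gene. The submitters' processing notes name fastp, HISAT2, StringTie and edgeR, without versions. Which step gave the counts, and whether strand was used, is not given in the sources used here. Counts were tested with edgeR 4.0.16 (R 4.3.3, TMM, filterByExpr with a minimum count of 10 and total of 15, quasi-likelihood F test, group as the only term), with Benjamini-Hochberg adjustment over 19101 entries and a threshold of 0.05. For the GC and length correction, GC content and log2 length were taken from the GENCODE 44 canonical transcript (GRCh38). Per library, natural splines with 5 degrees of freedom were fitted to how far log2 CPM lay from the mean, entered as offsets, and followed by a second TMM scaling. The scripts were tested on simulated data. Alternatives were DESeq2 1.42.0, limma 3.58.1 (voom), other scalings and filters, a replicate block, the labels' 2-fold criterion and leaving out each library.

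The members and gene lists were chosen with earlier results of these data known. Named were all 16 regulators, and in each other class up to 4 lower and 3 higher members with the smallest p and the 2 with the highest level per kb. Of each other list, up to 2 lower and 2 higher genes with the smallest p were named. Other genes named were chosen after their values were seen. A gene that this rule names is not reported here. Protein sequences were not used here.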

Additional observations from a re-analysis of the deposited data

How the results depend on the processing

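As fitted, 41 members were lower and 7 higher. With library size alone in place of TMM, 3 members were higher, with 1 other kinesin and 1 CENP gene. The labels' numbers do not pair the samples (correlations of same-numbered deviations -0.05, -0.16 and -0.31), and the replicate block gave 36 members lower and 3 higher, 1 of these an other kinesin and 1 a CENP gene. The block ended 9 fitted calls (KIF2C, KIF18A, KIF24, KIF9, KIF25, KIF1C, CENPN, CENPC and CENPX). Leaving out each library gave 33 to 40 members lower and 3 to 7 higher, 1 to 4 other kinesins higher, 1 to 3 CENP genes higher and 9 to 15 other mitotic genes higher. The whole table gave 3754 lower and 3496 higher as fitted. Its counts under library size alone, the block or a left-out library are not given here. A loss particular to members thus cannot be told apart from a general one. Under the labels' 2-fold criterion, 1 member was higher (1 other kinesin, 0 mitotic kinesins, 0 CENP genes) and 1 lower (1 regulator, 0 in each other class), with 0 of the 112 other mitotic genes in either direction, and 338 entries higher and 226 lower over all.

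With the GC and length trends removed, 3 members were higher (0 mitotic kinesins, 2 other kinesins, 1 CENP gene), 5 other kinesins and 14 regulators were lower, 8 other mitotic genes were higher and 52 lower, and over all entries 2302 were higher and 2036 lower. With the block as well, 1 member was higher (0 mitotic kinesins, 1 other kinesin, 0 CENP genes), 4 other kinesins were lower, 6 other mitotic genes higher, and over all entries 1796 were higher and 1524 lower. Without a second TMM scaling, an alternative chosen after seeing the data, 1 member was higher (0 mitotic kinesins, 1 other kinesin, 0 CENP genes), 5 other kinesins and 16 regulators were lower, 5 other mitotic genes higher, and the split over all entries was 1785 higher and 2640 lower. Leaving out each library after the correction gave 31 to 36 members lower against 38, 13 to 14 regulators lower against 14, 9 to 10 mitotic kinesins against 10, 4 to 5 other kinesins against 5, 5 to 8 CENP genes against 9, and 36 to 52 other mitotic genes against 52. It gave 1 to 3 members higher against 3 (1 without control replicate 1) and 4 to 8 other mitotic genes higher against 8. Over all entries it gave 1296 to 1696 lower against 2036 (1306 without control replicate 1 and 1296 without control replicate 2) and 1590 to 2105 higher against 2302.

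The correction changed the sign of 15 members. Of these, 8 passed in at least 1 fit, KIF22 (-0.059), CENPN (0.034), CENPC (0.022), CENPX (-0.16), CENPV (-0.27), CENPB (-0.24), AURKB (-0.16) and MYBL2 (-0.17), and 7 in neither (CDC20, CENPM, CENPP, CENPQ, KIFC2, KIF7 and KIF26A-DT). With the block KIF22 was at -0.060 and CENPC at 0.021, the other 6 of those 8 at the same values to 2 decimals. Without a second TMM scaling KIF22 was at -0.099, CENPX at -0.20, CENPV at -0.31, CENPB at -0.28, AURKB at -0.20, MYBL2 at -0.21 and CDC20 at -0.21. The cause was not tested. Over the 13 settings other than the correction, 36 of the 48 called members kept their call and none changed sign. Members below 1 CPM are limited by depth.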
